A study of Rattus norvegicus with 8 samples.

Results

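Chemokines are small secreted proteins that guide migrating cells, and nucleus pulposus (NP) cells, the cells of the gel-like centre of the intervertebral disc, are among the tissue cells that make them. Transcripts of 9 chemokine ligands (Cxcl1, Cxcl2, Cxcl10, Cxcl12, Cxcl16, Cx3cl1, Ccl2, Ccl7 and Ccl20) and of 1 chemokine receptor (Cxcr4) were examined in rat NP cells depleted of SIRT6. The genes were taken by name from the deposited table, which held all 10 of them, and all 10 passed the filter on low counts, out of 13250 genes tested. Primary NP cells of adult Sprague Dawley rats were transduced with lentivirus carrying a mixture of ShRNA clones against Sirt6, a NAD+-dependent histone deacetylase (Sirt6-KD, libraries S5 to S8), or a control ShRNA (Sirt6-Ctrl, libraries S1 to S4). Both groups were grown with serum, and the study put transduced cells into medium with puromycin and describes a period in hypoxia before protein extraction, without saying so for the RNA. There were 4 libraries in each group, the cells came from 4 rats, and the study compared knocked-down cells with their respective controls, but the labels do not tie a Sirt6-KD library to a Sirt6-Ctrl library of the same rat. The RNA came from whole cultures, so that fewer cells of a type and less RNA per cell cannot be told apart.

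Chemokines bind G-protein-coupled receptors on the target cell. CXC ligands with a glutamate-leucine-arginine motif, such as CXCL1 and CXCL2, attract neutrophils through CXCR2, whereas CCL2 and CCL7 attract monocytes through CCR2. CXCL10 is induced by interferon and binds CXCR3, CXCL12 is the ligand of CXCR4 and of the scavenger receptor ACKR3, and CX3CL1 and CXCL16 are made as membrane proteins that proteases release. Many of these ligands are part of the senescence-associated secretory phenotype (SASP), and NF-κB is a well-known inducer of several of them in disc cells exposed to IL-1β or TNF.

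RefSeq promoter windows of the GRCr8 assembly, each from 250 bases before to 50 bases after the start of the gene, were at hand for 9 of the 10 genes. A match to the NF-κB motif on either strand was present in 5 of these 9 windows (Cxcl1, Cxcl2, Cxcl10, Ccl7 and Ccl20), against 7.51% of all 33469 windows of that length. The AP-1 motif TGANTCA was found in 2 of the 9 windows, against 7.33% of all windows. The interferon-response motif GAAANNGAAA was found in 1 window, that of Cxcl10, against 3.92% of all windows. The TATA-box letters TATAAA were found, at any distance from the start, in 4 windows, against 14.2% of all windows. Matches on both strands overlap in the NF-κB stretches of Cxcl1, Cxcl2 and Cxcl10, and a match describes the letters, not a bound site. The windows of the 3 genes that rose in Sirt6-KD cells, and of Cxcl10, which did not, are printed with the NF-κB matches in capitals. They lie at chr14:17479272-17479571 (minus strand) for Cxcl1, chr14:17467206-17467505 (minus strand) for Cxcl2, chr19:10242771-10243070 (minus strand) for Cx3cl1 and chr14:15988816-15989115 (plus strand) for Cxcl10.
Cxcl1: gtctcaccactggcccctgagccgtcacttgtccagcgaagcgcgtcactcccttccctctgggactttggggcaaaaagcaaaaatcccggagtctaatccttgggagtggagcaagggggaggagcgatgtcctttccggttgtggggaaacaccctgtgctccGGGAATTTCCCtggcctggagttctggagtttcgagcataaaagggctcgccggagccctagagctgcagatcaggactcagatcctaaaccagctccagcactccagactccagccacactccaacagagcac
Cxcl2: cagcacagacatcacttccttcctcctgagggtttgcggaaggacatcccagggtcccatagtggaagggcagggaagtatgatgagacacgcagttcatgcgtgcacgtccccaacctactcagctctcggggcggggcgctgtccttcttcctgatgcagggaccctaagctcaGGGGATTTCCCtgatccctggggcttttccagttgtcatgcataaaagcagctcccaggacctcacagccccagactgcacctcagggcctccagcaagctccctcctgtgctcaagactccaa
Cx3cl1: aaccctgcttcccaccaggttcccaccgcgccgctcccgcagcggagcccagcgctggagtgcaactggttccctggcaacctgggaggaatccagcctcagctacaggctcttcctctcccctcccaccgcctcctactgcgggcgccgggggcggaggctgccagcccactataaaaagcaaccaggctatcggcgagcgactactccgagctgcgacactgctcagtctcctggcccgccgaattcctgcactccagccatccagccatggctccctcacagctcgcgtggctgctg
Cxcl10: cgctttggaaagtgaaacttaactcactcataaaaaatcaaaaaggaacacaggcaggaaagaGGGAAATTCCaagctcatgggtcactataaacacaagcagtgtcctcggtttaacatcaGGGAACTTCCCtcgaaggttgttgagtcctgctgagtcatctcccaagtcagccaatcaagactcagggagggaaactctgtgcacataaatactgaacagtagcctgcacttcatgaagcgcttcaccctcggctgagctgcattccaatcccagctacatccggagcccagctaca
In Cxcl1 the capitals begin 84 bases before the start of the gene, and in Cxcl2 they begin 74 bases before it. Cxcl10 has 2 separate stretches, which begin 187 and 128 bases before the start. The Cx3cl1 window holds no match to the NF-κB motif and has the letters TATAAA beginning 78 bases before the start.

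Library totals ranged from 31994838 to 40124813 counts. Sirt6 fell from 47.6 to 56.4 CPM in the 4 Sirt6-Ctrl libraries to 19.2 to 21.8 CPM in the 4 Sirt6-KD libraries (log2 fold change -1.35, adjusted p = 0.000713, edgeR's quasi-likelihood test). Scaled by the ERCC spike-in RNA, the log2 fold change of Sirt6 was -0.36 and not called (adjusted p = 0.566), or -1.31 relative to the median of all genes under that scaling. CPM are TMM-normalized counts scaled to a library size of 1e6, and every fold change is Sirt6-KD over Sirt6-Ctrl. Added ERCC spike-in RNA took 6.27% and 9.80% of the counts of control libraries S1 and S2, 2.97% to 3.08% of those of S3 and S4, and 2.15% to 2.47% of those of the Sirt6-KD libraries. Control library S4 stood apart from the other controls for several of the chemokines. Fold changes with and without it are given for Cxcl1, Cxcl2, Cxcl3, Cxcl6, Cxcl12, Cx3cl1, Ccl2, Ccl7, Ccl20 and Cxcr4, and not for the other genes.

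With Sirt6 knocked down, 3 of the 10 genes rose: Cxcl1, Cxcl2 and Cx3cl1. None of the 10 was called lower by edgeR, DESeq2 or limma-voom, and 0 reached an unadjusted p below 0.05 in that direction, while 8 of them had a positive and 2 a negative fold change. A gene was called when its adjusted p was below 0.05 and its fold change above 1.5. Of all genes tested, 8.02% were called higher and 10.7% lower by this rule. The median log2 fold change was 0.57 over the 10 genes and -0.016 over all genes. Under scaling by the spike-ins, which moved the median of all genes up by 0.94 on the log2 scale, 1 of the 10 genes (Cxcl2) was called higher, against 0.151% of all genes. The levels of 4 of the 10 genes (Cxcl1, Cxcl2, Cx3cl1 and Cxcr4) did not overlap between the groups, against 30.4% of all genes.

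**Figure D1:**
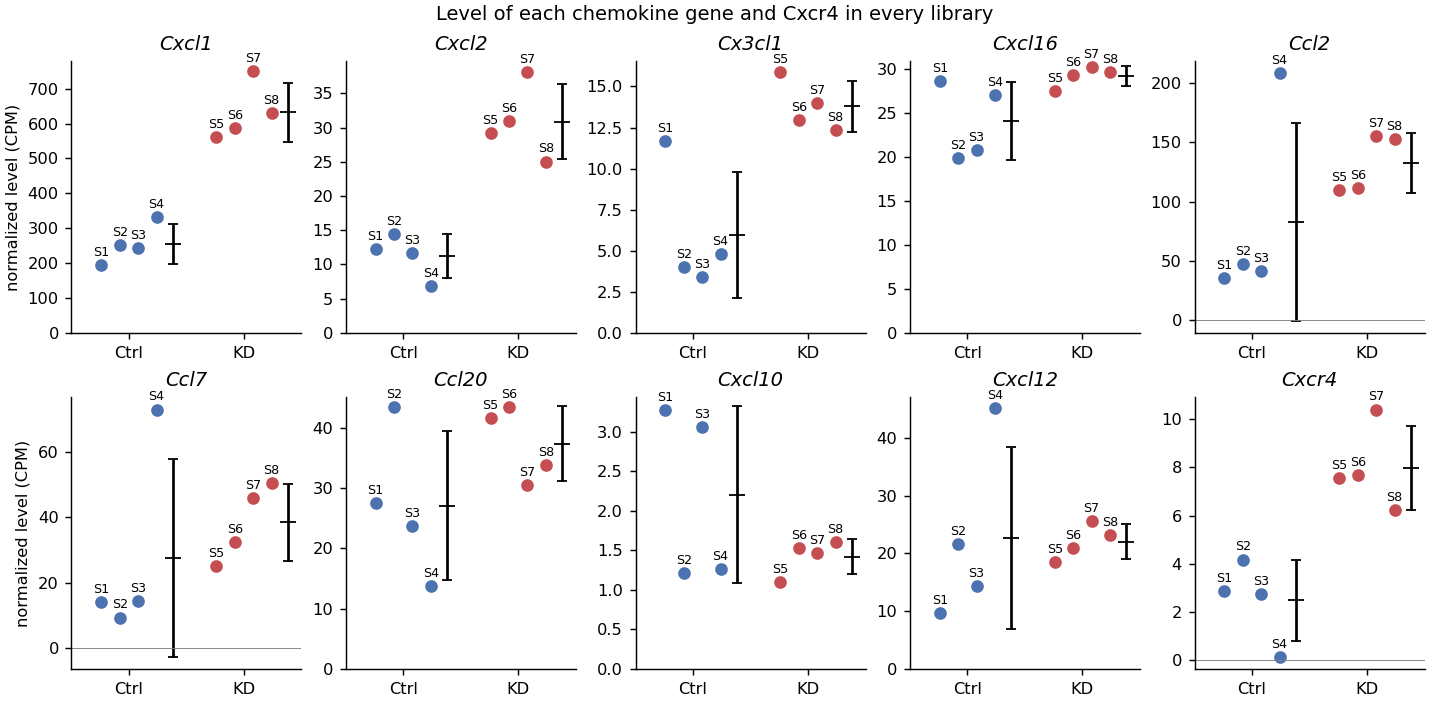
Normalized level (CPM, linear axes) of the 9 chemokine genes and Cxcr4 in each of the 8 libraries, with the mean and SD of each group (n = 4) as black bars. For Cxcl1, Cxcl2, Cx3cl1 and Cxcr4 all 4 Sirt6-KD libraries lie above all 4 Sirt6-Ctrl libraries, and control library S4 lies far above the other controls for Ccl2 and Ccl7.

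Among the neutrophil-attracting ligands, Cxcl1 (ENSRNOG00000002802) measured 195, 251, 243 and 333 CPM in Sirt6-Ctrl libraries S1 to S4 and 560.4, 588, 751 and 630.5 CPM in Sirt6-KD libraries S5 to S8. The lowest Sirt6-KD library was above the highest control. The group means were 256 ± 57.0 and 633 ± 84.2 CPM (SD, n = 4 each), a log2 fold change of 1.31 (SE 0.18) with an adjusted p of 0.00259 by edgeR's quasi-likelihood test. Its raw counts, 6804 to 28818 reads per library, were the highest among the 10 genes, although read counts are not scaled by transcript length.

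Cxcl2 (ENSRNOG00000002792), which encodes another ligand of CXCR2, measured 12.2, 14.4, 11.6 and 6.81 CPM in the controls and 29.2, 30.9, 38.1 and 25.0 CPM in Sirt6-KD cells. The groups were again fully separate, with S4 the lowest library. Cxcl2 rose from 11.3 ± 3.21 to 30.8 ± 5.47 CPM (SD, n = 4 each), a log2 fold change of 1.45 (SE 0.25, adjusted p = 0.00537 by edgeR). Expressed as ratios, Cxcl1 was 2.47-fold and Cxcl2 2.74-fold higher, and both calls held with any 1 library left out. The ratio of Cxcl1 to Cxcl2 CPM lay between 16.0 and 25.2 in 7 libraries and was 48.9 in S4, where Cxcl1 was the highest and Cxcl2 the lowest of the controls.

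Cxcl1 and Cxcl2 are adjacent on chromosome 14, and Cxcl3, a further CXCR2 ligand, lies 2 protein-coding genes beyond Cxcl1 in the order of the RefSeq genes. Cxcl3 measured 59.7, 44.4, 29.9 and 13.8 CPM in the controls and 77.7, 109, 93.1 and 61.6 CPM in Sirt6-KD cells. Cxcl3 rose as well (log2 fold change 1.21, SE 0.37, adjusted p = 0.0414), with no overlap between the groups and with S4 the lowest library. Its call was lost when S3, S5, S6 or S7 was left out (adjusted p up to 0.117). The Cxcl3 call was also lost when tested against a fold change of 1.5 (glmTreat, adjusted p = 0.225). Cxcl6, which also encodes a neutrophil attractant, measured 24.5, 33.2, 5.83 and 1.82 CPM in the controls and 39.1, 49.0, 71.6 and 32.4 CPM in Sirt6-KD cells. The groups overlapped by 1 control library, S2, and the log2 fold change of 1.56 (SE 0.69) was not called (adjusted p = 0.129). Cxcl6 was called higher by limma-voom (2.38, adjusted p = 0.0246), under spike-in scaling (3.23, adjusted p = 0.0345) and without S1 and S2 together (3.67, adjusted p = 0.00591), and without S2 alone it was at 2.18 and not called (adjusted p = 0.0538). Cxcl1, Cxcl2 and Cxcl3 are paralogs, and how the authors' counting treated reads that map to more than 1 gene is not given in the sources used here.

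Of the ligands made as membrane proteins, Cx3cl1 (ENSRNOG00000016326, fractalkine) measured 11.7, 3.99, 3.39 and 4.82 CPM in the controls and 15.9, 13.0, 14.0 and 12.3 CPM in Sirt6-KD cells. The groups did not overlap, but control S1 came within 1 CPM of the lowest Sirt6-KD library. Cx3cl1 rose from 5.97 ± 3.85 to 13.8 ± 1.54 CPM (SD, n = 4 each), a log2 fold change of 1.21 (SE 0.39) with an adjusted p of 0.0477, close to the threshold. The call was lost when any library other than S1 was left out, with adjusted p-values up to 0.122, and without S1 the log2 fold change was 1.79 (adjusted p = 0.0105). Over all alternatives the adjusted p of Cx3cl1 ranged from 0.00551 to 0.241.

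Cxcl16 (ENSRNOG00000026647), the ligand of CXCR6, measured 28.6, 19.8, 20.8 and 27.0 CPM in the controls and 27.5, 29.3, 30.2 and 29.6 CPM in Sirt6-KD cells. The control S1 was above the lowest Sirt6-KD library, and the 4 Sirt6-KD values lay close together. Its log2 fold change was 0.28 (95% interval -0.10 to 0.66, adjusted p = 0.268). Genes that release or carry chemokines, 15 of which were tested, gave no call in the higher direction by edgeR (2 at an unadjusted p below 0.05, 1 by DESeq2 and 1 by limma-voom) and 2 in the lower: Ctsk, the collagen-degrading cathepsin K, fell by 1.82 on the log2 scale (adjusted p = 0.00459) and Gpc1, the heparan sulfate proteoglycan glypican-1, fell by 0.92 (adjusted p = 0.00244). By edgeR 0% of the list was called higher and 13.3% lower, against 8.02% and 10.7% of all genes tested. The list includes Adam10 and Adam17, the sheddases of CX3CL1 and CXCL16, with log2 fold changes of 0.29 (adjusted p = 0.517) and 0.14 (adjusted p = 0.511).

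For the monocyte attractants the result turned on 1 library. Ccl2 (ENSRNOG00000007159) measured 35.9, 47.7, 41.4 and 208 CPM in the controls and 109.6, 112, 155 and 153 CPM in Sirt6-KD cells. Control libraries S1 to S3 were below every Sirt6-KD library, and S4 was above every one of them. With all libraries the means were 83.1 ± 83.2 and 132 ± 25.1 CPM (SD, n = 4 each), and the log2 fold change of 0.67 was not called (95% interval -0.45 to 1.79, adjusted p = 0.371).

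Ccl7 (ENSRNOG00000000239), the neighbour of Ccl2 on chromosome 10, measured 14.0, 9.31, 14.3 and 73.0 CPM in the controls and 25.1, 32.4, 45.8 and 50.6 CPM in Sirt6-KD cells. The order of the groups was that of Ccl2, with S4 highest of all. Its log2 fold change was 0.47 (95% interval -0.80 to 1.75, adjusted p = 0.595). The ratio of Ccl2 to Ccl7 CPM in S4, 2.85, lay within the range of the other 7 libraries (2.56 to 5.12), so the pair was high together in S4.

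Without S4, Ccl2 and Ccl7 were called higher in Sirt6-KD cells, with log2 fold changes of 1.67 (adjusted p = 0.00224) and 1.61 (adjusted p = 0.00882). Over all alternatives tried, the adjusted p ranged from 0.00224 to 0.915 for Ccl2 and from 0.00882 to 0.963 for Ccl7, and leaving out S4 was the only alternative under which either was called. The count of the 10 genes called higher without S4 was 5 (Cxcl1, Cxcl2, Ccl2, Ccl7 and Cxcr4), against 8.09% of all genes called higher in that fit. None of the 10 was called lower, against 10.9% of all genes. Cx3cl1 lost its call in the same fit (log2 fold change 1.12, adjusted p = 0.0914). The log2 fold change without S4 was larger for Cxcl1 (1.46) and smaller for Cxcl2 (1.27) and for the further ligands Cxcl3 (0.93) and Cxcl6 (1.18).

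**Figure D2:**
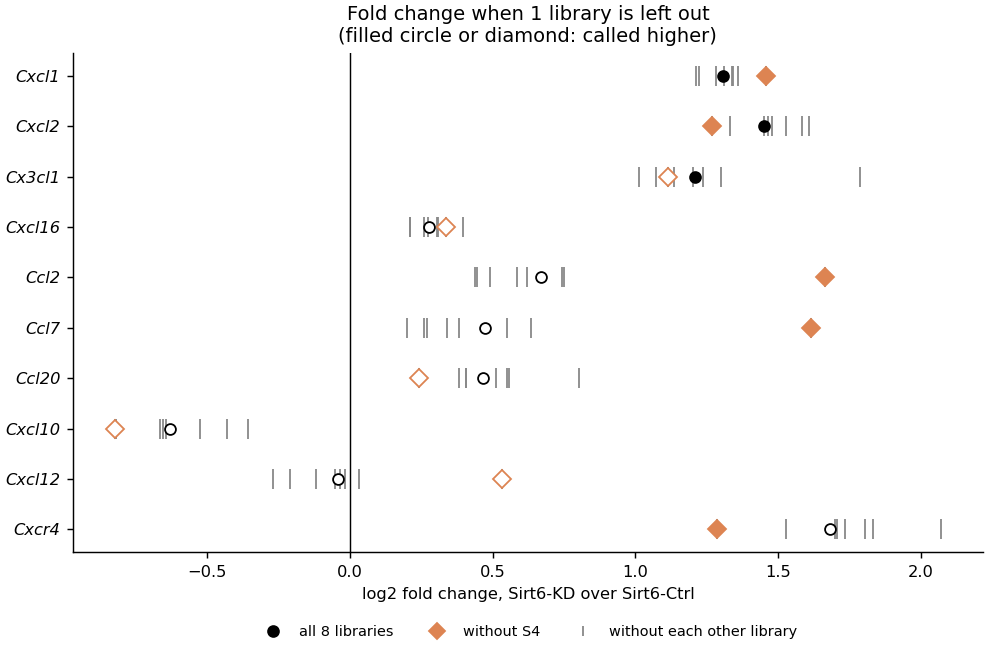
Log2 fold change of each gene with all 8 libraries (circles), without control library S4 (diamonds) and without each other library in turn (grey ticks), filled where the gene was called higher. Ccl2 and Ccl7 lie at 0.67 and 0.47 with all libraries and at 1.67 and 1.61 without S4, whereas Cxcl1 and Cxcl2 are called in both.

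Ccl20 (ENSRNOG00000015992), the ligand of CCR6, measured 27.4, 43.4, 23.8 and 13.7 CPM in the controls and 41.7, 43.4, 30.4 and 33.9 CPM in Sirt6-KD cells. Control S2 was level with the highest Sirt6-KD value, and S4 was the lowest library. The log2 fold change was 0.47 (95% interval -0.20 to 1.13, adjusted p = 0.290). Ccl20 was called higher without S2 (log2 fold change 0.80, adjusted p = 0.0438) and without S1 and S2 together (1.01, adjusted p = 0.0345). Without S4 its log2 fold change was smaller, 0.24, and not called (adjusted p = 0.496). Over all alternatives the adjusted p of Ccl20 ranged from 0.0345 to 0.879.

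Cxcl10 (ENSRNOG00000022256), the interferon-induced ligand, was scarce, at 38 to 114 reads per library. It measured 3.28, 1.21, 3.06 and 1.26 CPM in the controls and 1.10, 1.52, 1.46 and 1.60 CPM in Sirt6-KD cells. The controls fell into a higher pair (S1 and S3) and a lower pair (S2 and S4), and the Sirt6-KD libraries lay at the level of the lower pair. The log2 fold change of -0.63 was not called (95% interval -1.88 to 0.62, adjusted p = 0.458), and it turned positive under spike-in scaling. Among 17 other interferon-induced genes tested, 1 was called higher (Usp18, the ISG15 protease, log2 fold change 1.24, adjusted p = 0.0132, lost without S7) and 1 lower (Tap1, a peptide transporter of antigen presentation, -0.63, adjusted p = 0.0490, lost in 6 of 8 fits that left out a library). The median log2 fold change of that list was -0.28. In each direction 5.88% of the list was called, against 8.02% (higher) and 10.7% (lower) of all genes tested. The lists of genes named here were drawn up with earlier results of these data known, so the counts describe the lists and support nothing further.

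Cxcl12 (ENSRNOG00000013589), the homeostatic ligand of CXCR4, measured 9.63, 21.6, 14.4 and 45.1 CPM in the controls and 18.6, 20.9, 25.5 and 23.1 CPM in Sirt6-KD cells. The 4 Sirt6-KD values fell inside the range of the controls, whose highest library was S4. The means were 22.7 ± 15.7 and 22.0 ± 2.98 CPM (SD, n = 4 each), with a log2 fold change of -0.04 (95% interval -0.93 to 0.84, adjusted p = 0.955) that changed sign under several alternatives. Without S4 it was 0.53 and still not called (adjusted p = 0.199, the lowest of all alternatives).

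Cxcr4 (ENSRNOG00000003866), the receptor, measured 2.87, 4.18, 2.74 and 0.15 CPM in the controls and 7.55, 7.68, 10.4 and 6.24 CPM in Sirt6-KD cells. Every Sirt6-KD library was above every control, and S4 held 6 reads of Cxcr4 where the other controls held 93 to 135. The group means were 2.48 ± 1.69 and 7.97 ± 1.75 CPM (SD, n = 4 each), a log2 fold change of 1.68 (SE 0.70). With all libraries it was the largest fold change of the 10 genes, yet it was not called (adjusted p = 0.110, although the unadjusted 95% interval, 0.13 to 3.24, did not include 0). Without S4 the log2 fold change was smaller, 1.29, and Cxcr4 was called (adjusted p = 0.0344). It was called as well with all libraries by DESeq2 (adjusted p = 0.0397) and by limma-voom (adjusted p = 0.0348), and over all alternatives the adjusted p ranged from 0.0344 to 0.335. By each of these tools 4 of the 10 genes were called higher, against 10.9% of all genes with DESeq2 and 12% with limma-voom.

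**Figure D3:**
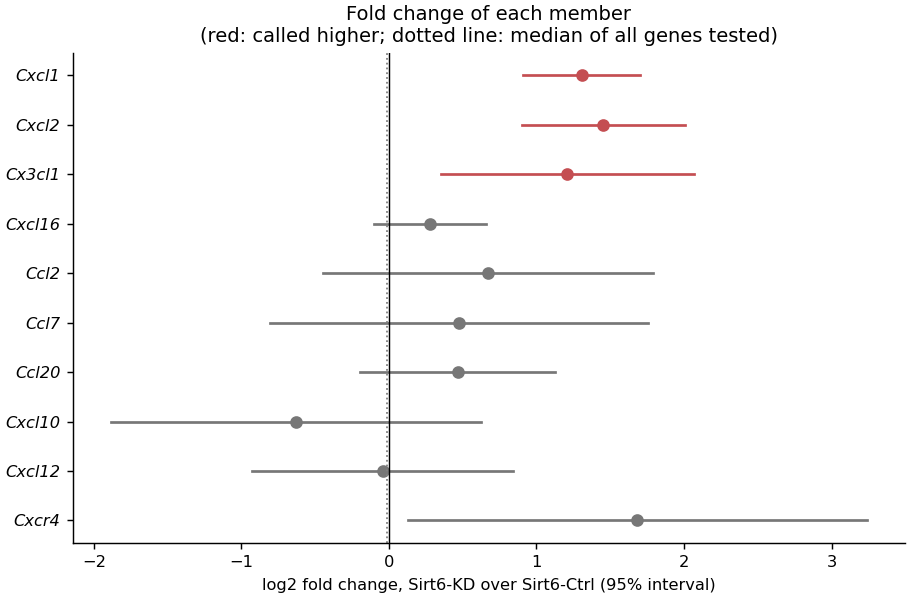
Log2 fold change (Sirt6-KD over Sirt6-Ctrl, 8 libraries) of each of the 10 genes, with its unadjusted 95% interval, called genes in red, and the median of all genes tested as a dotted line. The intervals of Cxcl1 (0.91 to 1.70) and Cxcl2 (0.90 to 2.0) are narrow beside those of Ccl2, Ccl7, Cxcl10 and Cxcr4.

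The ligand and its receptor were far apart in S4. The ratio of Cxcl12 to Cxcr4 CPM was 310.2 there and 2.45 to 5.25 in the other 7 libraries. Ackr3, the scavenger receptor of CXCL12, measured 113, 159, 212 and 104 CPM in the controls and 370, 342, 304 and 318 CPM in Sirt6-KD cells. Ackr3 rose without overlap of the groups (147 ± 49.3 to 333 ± 28.7 CPM, SD, n = 4 each, log2 fold change 1.18, SE 0.21, adjusted p = 0.00646). Its call held with any 1 library left out and was lost under spike-in scaling (adjusted p = 0.0723). It was also lost when tested against a fold change of 1.5 (glmTreat, adjusted p = 0.0703). Of 13 genes of CXCR4 signalling and recycling, 1 was called higher, Rgs16, which encodes a GTPase-activating protein for Gi-type G proteins (log2 fold change 1.52, adjusted p = 0.0211, lost in 4 of 8 fits that left out a library), and none was called lower by edgeR, DESeq2 or limma-voom or reached an unadjusted p below 0.05 in that direction. That is 7.69% called higher, near the 8.02% of all genes tested, of which 10.7% were called lower.

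Few of the remaining chemokine receptors had a row under their names. Of 22 listed receptors other than Cxcr4, 4 had a row in the deposited table and were tested. Ccr1 was at 0 reads in S1, S2 and S4, a count that allows up to 0.0727 to 0.0928 CPM at 3 counts per library, and held 32 reads in S3. In Sirt6-KD cells it measured 1.33, 2.06, 3.31 and 1.51 CPM, above every control, but its log2 fold change of 3.11 (SE 1.49) was not called (adjusted p = 0.159). With all libraries, limma-voom called Ccr1 higher (log2 fold change 5.62, adjusted p = 0.0142). Ackr4, a scavenger of CCL19 and CCL21, held 532 to 1794 reads per library and had a log2 fold change of 0.32 (95% interval -0.57 to 1.22). Cxcr5 had one of -0.16 (95% interval -3.14 to 2.83) on at most 40 reads per library. The other 18 receptors had no row under their names in the table. Among them were Cxcr2, Ccr2, Ccr6, Cxcr3, Cxcr6 and Cx3cr1, which bind the ligands described here. The smallest total of a row in that table was 81 reads over the 8 libraries. Reads of genes without a named row were not looked up, so a missing row does not show that a gene was silent.

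Of 30 further ligand genes, 5 had a row. Besides Cxcl3 and Cxcl6 these were Cxcl14, Ccl27 and Cklf. Cxcl14, an epithelial and fibroblast chemokine, measured 1.47, 4.30, 1.24 and 1.02 CPM in the controls and 0.55, 0.21, 0.21 and 0.12 CPM in Sirt6-KD cells. It fell by 2.87 on the log2 scale (SE 0.82, adjusted p = 0.0317) with no overlap, on 4 to 19 reads per Sirt6-KD library. Its call was lost when S1, S2, S6, S7 or S8 was left out (adjusted p up to 0.0984). Over all alternatives the Cxcl14 call was lost in 10 of 20, among them limma-voom, glmTreat and spike-in scaling, and DESeq2 kept it. Ccl27 (log2 fold change 0.03, 95% interval -1.97 to 2.04) and Cklf (-0.61, 95% interval -2.09 to 0.87) were not called.

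Among the receptors and adaptors that lead to chemokine induction, 3 of 22 tested genes were called higher and 2 lower. These are 13.6% and 9.09% of the list, near the 8.02% and 10.7% of all genes tested. Tlr2, a receptor for bacterial lipopeptides, rose from 27.1 ± 11.6 to 74.5 ± 7.80 CPM (log2 fold change 1.46, adjusted p = 0.00872, n = 4 each, edgeR). Il6st, the shared signal transducer gp130, rose by a log2 fold change of 1.38 (adjusted p = 0.0209), and Il1r1, the receptor of IL-1, by 1.65 (adjusted p = 0.0277). Irak4, a kinase downstream of both IL-1 and Toll-like receptors, fell by 0.93 on the log2 scale (adjusted p = 0.0243), and Il17rc, a subunit of the IL-17 receptor, fell by 0.75 (adjusted p = 0.0314). With 1 library left out in turn, the call of Tlr2 held in 8 of 8 fits, while those of Il6st, Il1r1, Irak4 and Il17rc were lost in 4, 5, 5 and 7 fits. The signs of Irak4 and Il17rc, and those of Gpc1 and Tap1 above, turned positive under spike-in scaling while staying below its shifted median.

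NF-κB subunits, kinases and feedback genes gave 5 calls in the higher direction and none in the lower among 18 tested (0 at an unadjusted p below 0.05, and 0 by DESeq2 or limma-voom), with a median log2 fold change of 0.41. The shares called were 27.8% higher and 0% lower, against 8.02% and 10.7% of all genes tested. Nfkbiz, an atypical IκB that acts with NF-κB in the nucleus, rose from 85.9 ± 23.0 to 217 ± 20.4 CPM (log2 fold change 1.33, adjusted p = 0.00265, n = 4 each, edgeR). Tnfaip3, the feedback inhibitor A20, rose by a log2 fold change of 1.47 (adjusted p = 0.00619), and Nfkbia, the inhibitor IκBα, by 0.69 (adjusted p = 0.00767). The other two called genes were Nfkb1 (0.75, adjusted p = 0.0205), the p105/p50 subunit, and Map3k8 (0.88, adjusted p = 0.0272), a kinase bound by p105. The calls of Nfkbiz, Tnfaip3 and Nfkbia held with any 1 library left out, and those of Nfkb1 and Map3k8 were lost in 4 of 8 such fits. All 5 were among the 7 of 18 genes of this list that were separate between the groups, against 30.4% of all genes tested. Of the 5, 3 encode inhibitors or modulators rather than subunits or kinases.

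RNA-binding factors that act on the transcripts of chemokines gave 2 calls in the higher direction and none in the lower among 8 tested (1 at an unadjusted p below 0.05, and 0 by DESeq2 or limma-voom). These are 25% and 0% of the list, against 8.02% and 10.7% of all genes tested. Zc3h12a, the ribonuclease Regnase-1, rose from 64.9 ± 17.2 to 155 ± 2.29 CPM (log2 fold change 1.25, adjusted p = 0.00330, n = 4 each, edgeR). Zfp36l1, a protein that binds AU-rich elements, rose from 107 ± 24.3 to 228 ± 42.5 CPM (log2 fold change 1.10, adjusted p = 0.00540), and both calls held with any 1 library left out.

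**Figure D4:**
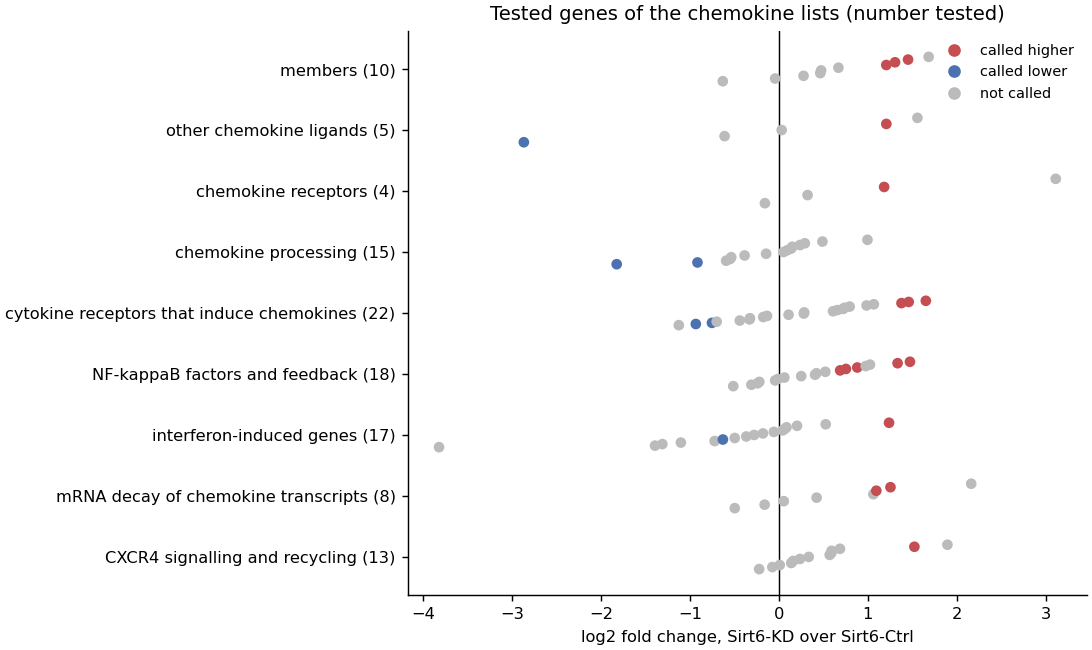
Log2 fold change (Sirt6-KD over Sirt6-Ctrl) of every tested gene of the chemokine gene lists, 1 point per gene, with the number tested in brackets and called genes in red (higher) or blue (lower). NF-κB genes gave 5 calls, all higher, and interferon-induced genes gave 1 call in each direction. Of all genes tested, 8.02% were called higher and 10.7% lower.

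The spread among libraries also differed between the groups. The coefficient of variation (SD over mean) of the Sirt6-KD libraries was below that of the controls for 10 of the 10 genes, and for 85.6% of all genes tested. It was 100% in the controls and 19.0% in Sirt6-KD cells for Ccl2, and 110% and 30.5% for Ccl7. Library S4 was the highest control for 4 of the 10 genes (Cxcl1, Cxcl12, Ccl2 and Ccl7) and the lowest for 3 (Cxcl2, Ccl20 and Cxcr4). It was the highest or lowest control for 42.6% of all genes tested.

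Marker genes of other cells were examined beside these results. Of 18 leukocyte markers, 4 (Cd68, Cd14, Csf1r and Cd74) had a row, and Ptprc, Cd3e and Adgre1 had none. None of the 4 was called by edgeR, DESeq2 or limma-voom or reached an unadjusted p below 0.05. By edgeR 8.02% of all genes tested were called higher and 10.7% lower. The summed level of the 4 was 12.3 to 31.1 CPM in the controls, the highest being S4, and 15.0 to 24.3 CPM in Sirt6-KD cells. Most of it was Cd14 (9.92 to 27.0 CPM in the controls). Of 9 endothelial markers 2 had a row, with sums of 17.5 to 28.5 CPM and 16.3 to 22.3 CPM, and Pecam1 and Cdh5 had none. Nearly all of the endothelial sum was Egfl7 (17.3 to 28.2 CPM in the controls). The 11 annulus and fibroblast markers summed to 15603 to 29238 CPM in the controls, with S4 the highest, and to 9463 to 19754 CPM in Sirt6-KD cells, and 3 of them were called lower (Postn, Col3a1 and Scx). The 3 are 27.3% of the list, against 10.7% of all genes tested. Most of the annulus and fibroblast sum was Col1a1 (25213 CPM in S4), which was not called (adjusted p = 0.150, edgeR). Of 16 NP markers 10 had a row, with sums of 822 to 2408 CPM in the controls, the lowest in S4, and 2942 to 3918 CPM in Sirt6-KD cells. Most of that sum, and of its differences between libraries, was Slc2a1, the glucose transporter GLUT1, which was called higher. Slc2a1 measured 1135, 1554, 2073 and 554 CPM in S1 to S4 and 2650 to 3609 CPM in Sirt6-KD cells. Krt8 and Car3 were called lower, and the NP markers T, Col2a1, Krt18, Krt19, Shh and Noto had no row. By edgeR 10% of the NP markers tested were called higher and 20% lower, against 8.02% and 10.7% of all genes tested. Of the 10 NP markers tested, 4 had a positive and 6 a negative fold change (median log2 fold change -0.36). With 1 library left out in turn the calls of Postn, Col3a1 and Car3 held in 8 of 8 fits, while those of Slc2a1, Krt8 and Scx were lost in 4, 5 and 6 fits. The part of these differences in the chemokine results was not tested.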

How the data were processed

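RNA-seq of 4 Sirt6-Ctrl and 4 Sirt6-KD cultures of primary rat NP cells was analysed from the files the authors deposited. One file the authors deposited holds raw read counts for Ensembl genes and ERCC spike-ins (32975 rows, 92 of them spike-ins). The other deposited file holds the authors' comparison, as normalized signal per library (counts divided by a size factor), log2 fold change, p-value and its adjusted form, and only its gene names were used. The submitters' processing notes name Trimmomatic 0.36, STAR 2.5.2b, featureCounts of Subread 1.5.2, DESeq2 and the Rnor_6.0 genome build. Strand setting and the treatment of multimapping reads are not given in the sources used here.

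Counts were filtered with filterByExpr (minimum count 10), normalized by TMM and tested with edgeR 4.0.16 (glmQLFit and glmQLFTest, two-sided, R 4.3.3) without pairing. The fit covered 13313 rows, 63 of them spike-ins, with Benjamini-Hochberg adjustment over all rows. The call threshold was 0.05 for the adjusted p together with 1.5 for the fold change. Intervals are unadjusted 95% intervals from the same fit, and SE is the log2 fold change over the square root of the F statistic. Depth was 31994838 to 40124813 counts per library, and the detection limit of 3 counts covers counting error only. The study describes independent experiments, but the labels do not say which culture or rat a library came from, so p-values measure the spread between these libraries.

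The 10 genes and the gene lists were chosen with earlier results of these data known. The text names the 10 genes, Sirt6, every tested chemokine ligand and receptor, and from other lists the called genes, at most the 3 with the smallest p per direction. Nfkb1, Map3k8, Col1a1 and Egfl7 were added after their values were seen. Adam10 and Adam17 (the sheddases), Col1a1, Egfl7 and the detected leukocyte markers are given although not called. Some markers and receptors are named as having no row. Alternatives were other filters, scalings (RLE, upper quartile, total count, spike-ins), DESeq2 1.42.0, limma-voom (limma 3.58.1), other fold thresholds and libraries left out. The procedure was tested on simulated data. Promoter windows and the order of genes are from RefSeq (GRCr8), a build other than that of the files, and motifs were searched on both strands.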

Additional observations from a re-analysis of the deposited data

Results flagged for a closer look

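In 38 groups of 4 libraries (the 10 genes and the other tested ligands and receptors, each in Sirt6-Ctrl and Sirt6-KD), the gap of the highest or lowest library to its nearest neighbour was divided by the range of the group. A ratio above Dixon's critical value was found in 6 groups, and chance alone gives about 1 in 20, or 1.9 of 38. For Ccl2, S4 was far above the other controls with a ratio of 0.931, and for Ccl7 the same library gave 0.921. The Ccl2 and Ccl7 calls turn on that library, as described above.

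For Cxcl14, S2 was the highest control with a ratio of 0.864 (4.30 CPM, against 1.02 to 1.47 CPM). For Ccl27, S4 was the lowest control at 0.048 CPM (2 reads, ratio 0.857), and S8 was the highest Sirt6-KD library at 1.66 CPM (56 reads, ratio 0.935). For Ccr1, S3 was the only control with any reads, which gives a ratio of 1. Without S3 (Sirt6-Ctrl replicate 3) Ccr1 was called higher (adjusted p = 0.00248, within a range of 0.00248 to 0.379 over all alternatives), a fit in which every remaining control is at 0.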

How the results depend on the processing

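Each alternative was applied alone. Over the 10 genes and 20 alternatives, 176 of 200 fold changes kept their direction and their side of the threshold, 10 lost a call, 7 gained one and 7 changed sign. The other fold thresholds (adjusted p alone and glmTreat) reuse the fold changes of the edgeR fit, so no direction could change there. Of the 10 genes, 7 were not called with all libraries by edgeR, and for these a kept result means that they stayed uncalled. Cxcl2 was called under all 20, and Cxcl1 under all but spike-in scaling. With a library left out, 2 to 5 of the 10 genes were called higher and 0 lower, the 5 without S4, and 13 to 41 genes of the other lists were called, the 41 without S3 and the 13 without S6. In these fits 3.28% (without S6) to 12.5% (without S3) of all genes were called higher. The share of all genes called lower ran from 5.15% (without S6) to 14.1% (without S3). The list genes numbered 26 with all libraries, 5 with glmTreat against a fold change of 1.5 and 2 with spike-in scaling, under which 1 of the 10 genes (Cxcl2) was called. With glmTreat 0.694% of all genes were called higher and 1.4% lower. Spike-in scaling moved the median over all genes to 0.94 (log2) and left 20 genes called higher and 4 lower. Sirt6 lost its call (-0.36). Relative to that median Sirt6 was at -1.31, Cxcl1 at 1.25, Cx3cl1 at 1.38 and Cxcr4 at 2.07. Under it the log2 fold change became 0.30 for Cxcl10, 0.75 for Cxcl12, 0.55 for Cklf, 0.89 for Cxcr5, 0.067 for Gpc1, 0.29 for Il17rc, 0.26 for Irak4 and 0.48 for Tap1, all below that median. Cxcl12 also changed sign with total count scaling (0.030) and limma-voom (0.16) and ranged from -0.27 to 0.53 with a library left out. Ccl7 was at -0.17 without S1 and S2 together. Cxcr5 was at 1.69 with limma-voom, 0.34 without S1 and S2 and -0.57 to 0.91 with a library left out, Ccl27 at -0.37 to 0.23 and Ackr4 at -0.043 to 0.73. The cause of these changes was not tested.

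No paired analysis was possible because the labels give the libraries no replicate or rat number, although the study describes cells of 4 rats with their controls. Replicate numbers used here follow the order of the libraries and pair nothing. Depth limits Cxcl10, Cxcl14, Ccl27, Cklf, Ccr1 and Cxcr5, which had at most 139 reads in any library.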

Other observations

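The gene order around Cxcl2 on chromosome 14 places EGF-family ligand genes on the side away from Cxcl1. Of these, Ereg (epiregulin) was called higher (6.36 to 23.7 CPM, log2 fold change 1.90, adjusted p = 0.00636, edgeR), and Areg (amphiregulin) was not (2.43 to 7.30 CPM, 1.59, adjusted p = 0.122). Mthfd2l, the gene next to Cxcl2, had a log2 fold change of -0.72 (adjusted p = 0.245). Of the genes within 4 protein-coding places of Cx3cl1 on chromosome 19, Ciapin1, Coq9 and Arl2bp were called lower, with log2 fold changes of -1.33, -0.65 and -0.75 (adjusted p = 0.00419, 0.0318 and 0.0262). Polr2c (-0.55, adjusted p = 0.0232, edgeR), whose fold change was below the threshold, and Rspry1 (0.11, adjusted p = 0.884) lie there too and were not called. Of all genes tested, 8.02% were called higher and 10.7% lower. The neighbours in this section were named after their values were seen, and their calls under the alternatives were not examined.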
